A study of Mus musculus with 20 samples.

Results

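The transcription factor genes Pax6, Rax, Six3, Six6 and Lhx2, known as eye field factors, were followed across the cell types of a cultured mouse retina in which MEIS1 or MEIS2 had been overexpressed. They are 5 of the 23260 genes in the count table and were chosen by name. RNA was counted as unique molecular identifiers (UMIs) in 79009 single cells of CD1 wildtype retinal explants from 20 libraries. Per the sample labels, explants were electroporated with a GFP control construct, MEIS1, MEIS2, or MEIS1 and MEIS2 in combination. The labels state an age of postnatal day 2 (P2) or 5 (P5), which is not taken here as the day of electroporation. At each age there are 4 libraries of the control and 2 of every other construct group, the combination being a 50:50 mix. GFP-positive cells were isolated in all groups, controls included, so cells of every group were selected for plasmid uptake. The purity of this selection was not measured here. The design text names the vector as pCAGIG, in which a ubiquitous promoter drives the insert in whatever cell takes it up. That text names NR2F1 and NR2F2 as the inserts and gives days of treatment where the labels give an age. The treatment label names MEIS1 for every single-construct library at P2 and MEIS2 for every one at P5. The titles, which name MEIS1 and MEIS2 at both ages, were followed. The labels do not say how many animals stand behind a library, so p-values measure the spread between libraries only.

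Eye field factors are switched on together where the eye will form, and several stay on in the dividing progenitors of the retina. Later they separate by cell type: Pax6, a paired-box and homeodomain factor, is kept in amacrine, horizontal and ganglion cells, Rax (retina and anterior neural fold homeobox) in progenitors and photoreceptor precursors, and Lhx2, a LIM homeodomain factor, in progenitors and Müller glia. MEIS proteins are homeodomain factors that bind DNA at a short TGACAG core and are known activators of Pax6 in the lens and early eye.

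Because Pax6 is described as a MEIS target, the 250 bases before each gene's start site in RefSeq (build GRCm38.p6) were searched for the letters TGACAG on both strands. RefSeq gives 6 such windows for 4 of the 5 genes, with no sequence used for Rax. The letters were found in 3 of the 6 windows, and in 15.9% of 32851 promoter windows of the same length, so the search describes the windows and singles out none. The 30 bases around each match are shown, all on the plus strand, with the match in capitals. In Pax6 it lies on the minus strand, so the capitals show its reverse complement.
Pax6: cggagcggagcaCTGTCAcaaagtgacaag
Six3: gattggcagggcTGACAGtgattggcagtg
Six6: cagcctagtgacTGACAGggggtctccatg
The Pax6 stretch is at chr2:105682292-105682321 and overlaps an annotated Pax6 exon. Its match begins 159 bases before a later start site inside the Pax6 gene (chr2:105668900-105697364, plus strand, GENCODE on mm10). The Six3 stretch is at chr17:85620683-85620712, inside the GENCODE gene model, and its match begins 139 bases before the RefSeq start. The Six6 stretch is at chr12:72939824-72939853 and overlaps an exon of the GENCODE gene 4930447C04Rik. Its match begins 46 bases before the RefSeq start. GENCODE places Six6 at chr12:72939892-72944899, a start slightly after that of RefSeq. The first Pax6 window and both Lhx2 windows do not hold these letters.

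Libraries held 2376875 to 141540352 UMIs and 1625 to 17739 cells, with medians of 992 to 14199 UMIs per cell. The library labelled P2 MEIS2 replicate 2 stands apart, with the lowest median (992), the highest share of Malat1 UMIs (10.0%) and a median of 0.387% mitochondrial UMIs, so the main differences that include it are also given without it. The barcodes of different libraries overlap little: 744 barcodes occur in more than 1 library, and no pair of libraries shares more than 30. In progenitors Meis1 was at 2413 and 2108 CPM (counts scaled to a common library total, here with TMM factors) in the P2 MEIS1 libraries and at 171 to 327 in the 4 P2 controls. Meis2 was at 776 and 1499 CPM in the P2 MEIS2 libraries against 112 to 182 in controls. At P5, Meis1 was at 3980 and 3400 CPM in the MEIS1 libraries against 194 to 234 in controls, and Meis2 at 768 and 1038 CPM in the MEIS2 libraries against 34.6 to 48.8 in controls. The 4 combination libraries carried both genes, with Meis1 at 894 and 862 CPM and Meis2 at 599 and 888 CPM at P2, and Meis1 at 1026 and 702 CPM and Meis2 at 1699 and 900.1 CPM at P5. The construct genes were thus high in the libraries whose titles name them, while GFP in P2 progenitors was lower with any MEIS (-2.21 on the log2 scale, adjusted p = 0.474 in edgeR's test). Cell types are the authors', and comparisons between them are descriptions, since the types rest on clusters of the same cells.

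In control libraries Pax6 was highest in amacrine cells, the inhibitory interneurons of the inner retina. Its level there was 935 ± 146 CPM (SD, n = 4 libraries) at P2 and 728 ± 141 CPM (n = 4) at P5, CPM being relative to all UMIs of that cell type in that library. Among types with at least 20 cells in each of the 4 controls, progenitors followed with 322 ± 34.6 CPM at P2 and 335 ± 63.0 CPM at P5. Neurogenic cells, the authors' label for cells in which the cell cycle genes Mki67 and Top2a were low (2.56 and 2.75 CPM over all controls, against 116 and 310 CPM in progenitors), held Pax6 at 159 ± 26.7 and 193 ± 51.6 CPM. The ranges of these 3 types did not overlap at either age: at P2 amacrine libraries ran from 796 to 1093 CPM, progenitors from 271 to 349 and neurogenic cells from 132 to 195. Below them came rods at 47.3 ± 13.9 CPM and cones at 46.6 ± 12.7 CPM at P2, which overlapped. At P5 rods (14.9 ± 13.0), bipolar cells (12.9 ± 6.85) and the 2 libraries with enough cones (13.2 and 19.2) also overlapped. Starburst amacrine cells reached 590 CPM at P2 and 454 CPM at P5, each in 1 library, and Müller glia 143 and 136 CPM, also in 1 library each. Horizontal cells numbered under 20 in every library. Summed over 30 control cells at P2 and 9 at P5 they held 395 and 257 CPM of Pax6. Over all controls this label was highest in the horizontal markers Onecut1, Onecut2 and Lhx1, though not Calb1. It was also highest in the ganglion cell markers Sncg (361 CPM), Pou4f1 (117), Rbpms (76.7) and Pou4f2 (3.65). The part of ganglion cells in its Pax6 level was not tested.

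The cell type that held most Pax6 UMIs differed between control libraries. Summed over the P2 controls, amacrine cells were 26.0% of cells and held 67.5% of Pax6 UMIs, while progenitors were 17.7% of cells and held 21.4%. Those sums rest on P2 control 1. Without it amacrine cells were 15.3% of cells with 49.7% of Pax6 UMIs, and progenitors 22.3% of cells with 36.9%. Summed over the P5 controls, amacrine cells were 7.05% of cells and held 25.9% of Pax6 UMIs, and progenitors, 9.44% of cells, held 46.0%. Without P5 control 1 the amacrine cells were 3.42% of cells with 18.4% of Pax6 UMIs, and progenitors held 53.6%. Amacrine cells held more Pax6 UMIs than progenitors in 3 of 4 P2 controls, P2 control 4 being the exception (2714 against 2769), and in 1 of 4 P5 controls, P5 control 1 (2390 against 1258).

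Rax had another order. It was highest in rods, at 467 ± 49.2 CPM (n = 4) at P2 and 339 ± 89.5 CPM (n = 4) at P5. At P2 neurogenic cells (421 ± 53.4 CPM) overlapped with rods, cones (320 ± 78.1) with neurogenic cells, and progenitors (236 ± 43.4) with cones, while amacrine cells (105 ± 47.1) lay below all of them. At P5 progenitors (223 ± 28.3 CPM) overlapped with rods, cones (140 and 211 in 2 libraries) with progenitors, and neurogenic cells (173 ± 32.6) with cones. Bipolar cells, the excitatory interneurons between photoreceptors and ganglion cells, held 23.3 ± 11.8 CPM at P5, overlapping with amacrine cells (55.4 ± 52.6). Rods held 45.8% of Rax UMIs at P2 and 58.0% at P5, close to their share of cells (42.9% and 57.8%).

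Six3 and Six6, paralogous homeobox factors of the forebrain and eye, were spread more evenly at P2. For Six3, amacrine cells were at 350 ± 175 CPM at P2 and 454 ± 316 CPM at P5, and progenitors at 298 ± 94.9 and 378 ± 96.5 CPM. Neurogenic cells followed with 206 ± 86.3 and 255 ± 78.1 CPM, then rods with 144 ± 48.3 and 85.8 ± 40.6 CPM. Neighbours in the order of Six3 levels overlapped at P2 throughout, cones (141 ± 87.1) included, and the P5 bipolar level of 164 ± 43.2 CPM overlapped with both its neighbours. Cones at P5 held less Six3, at 13.2 and 59.6 CPM in 2 libraries. The spread in amacrine cells was wide: the 4 P5 controls ran from 192 to 880 CPM.
Six6 was at 220 ± 58.0 CPM in P2 amacrine cells, 214 ± 66.1 in cones, 147 ± 30.8 in rods, 134 ± 21.3 in progenitors and 108 ± 24.6 in neurogenic cells, all neighbours overlapping. At P5 the highest Six6 mean was in progenitors (195 ± 25.9 CPM), ahead of amacrine cells (154 ± 74.3), neurogenic cells (112 ± 25.2), rods (70.8 ± 29.0), bipolar cells (66.2 ± 7.46) and the 2 cone libraries (26.4 and 53.2), with overlap between all neighbours but the last pair.

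Lhx2 was concentrated in progenitors, at 182 ± 49.0 CPM at P2 and 241 ± 20.2 CPM at P5. Neurogenic cells held 47.3 ± 15.3 and 98.8 ± 20.7 CPM, and the 2 ranges were apart at both ages. Müller glia, the glial cells that arise last from progenitors, reached 122 CPM at P2 and 174 CPM at P5 in 1 library each. Rods (30.5 ± 8.01 and 10.5 ± 5.06 CPM), amacrine cells (24.6 ± 6.0 and 25.8 ± 7.71) and P5 bipolar cells (24.3 ± 6.59) were low, and rods and amacrine cells overlapped at both ages. Progenitors held 67.3% of Lhx2 UMIs at P2 and 63.7% at P5.

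**Figure D1:**
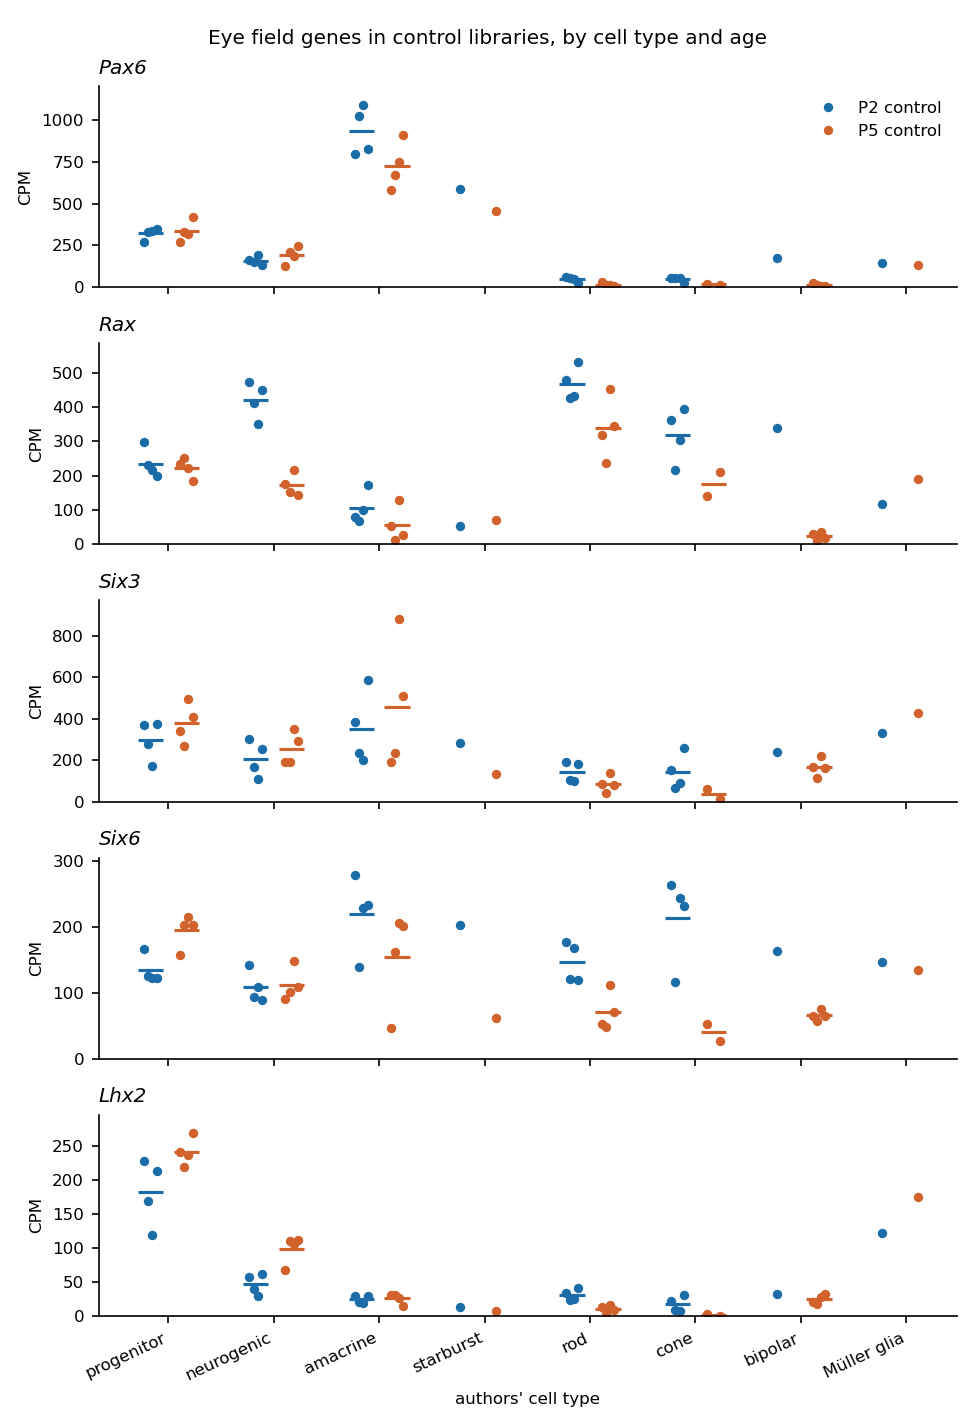
CPM of each eye field gene (y axes, linear, 1 scale per gene) in control libraries by the authors' cell type (x axis), with 1 point per library of at least 20 cells, lines at means of 2 or more libraries, P2 in blue and P5 in orange. Pax6 peaks in amacrine cells (935 CPM at P2), Rax in rods (467 CPM at P2) and Lhx2 in progenitors (241 CPM at P5). At P2 Six3 and Six6 vary less across types.

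The share of cells with a UMI, once each cell was thinned to 1000 UMIs, gave the same order of amacrine cells, progenitors, neurogenic cells and rods for Pax6. Pax6 was found in 55.6% of 8212 P2 amacrine cells and 46.8% of 1139 P5 amacrine cells, in 27.7% and 26.2% of progenitors and in 13.8% and 16.0% of neurogenic cells. In rods the Pax6 share was 5.46% at P2 and 2.44% at P5. P5 control 1 carried the latter, with 4.69%, and without it the share was 0.913%. Pax6 in P5 bipolar cells (1.45%), Rax in P5 bipolar cells (2.22%) and Lhx2 in rods (2.92% and 1.08%), amacrine cells (2.3% and 2.11%) and P5 bipolar cells (2.10%) were as low. Lhx2 in P2 neurogenic cells (4.96%) lay in the same range and in P5 neurogenic cells above it (9.48%). The share that free RNA gives was not measured for any gene, so shares up to that of Pax6 in P2 rods are not told apart from background. Differences given for these genes in these types are differences in a signal not told apart from it. Rax in P5 amacrine cells ran from 1.14% to 7.79% by control library, on both sides of the Pax6 share in P2 rods. Six6 (3.95% to 9.73%) and Six3 (3.80% to 11.7%) in P5 rods also ran on both sides of it. Before thinning the Pax6 shares were 93.7% in P2 amacrine cells (median 6050 UMIs) and 18.4% in P2 rods (median 3800 UMIs).
For Six3 and Six6 the shares, which pool cells, did not follow the order of the mean CPM of libraries. Six3 was found in 25.2% of P2 amacrine cells and 25.3% of P2 progenitors, and at P5 in 19.7% of amacrine cells against 34.2% of progenitors, where the mean CPM was higher in amacrine cells. Without P5 control 1, and in another random draw, the Six3 shares were 36.1% and 35.3%. Six6 was found in 7.73% of P5 amacrine cells and 11.2% of neurogenic cells, and without P5 control 1 in 18.6% and 10.9%. Summed over all P5 control cells, the CPM had the order of these shares. Six3 was then at 355 CPM in amacrine cells and 391 in progenitors, and Six6 at 111 in amacrine cells and 117 in neurogenic cells. The summed Six3 levels at P2 were 377 CPM in amacrine cells and 333 in progenitors, where the shares were nearly equal.
Rax was found in 35.3% of P2 rods and 5.80% of P2 amacrine cells after thinning, and Lhx2 in 16.7% of P2 progenitors and 22.6% of P5 progenitors. At that depth 30.9% of P2 progenitors and 25.8% of P5 progenitors held no UMI of any member, 40.8% and 40.2% held UMIs of exactly 1, and 28.3% and 33.9% of 2 or more. Of amacrine cells 29.9% at P2 and 18.1% at P5 held UMIs of 2 or more, and of rods 14.2% and 4.87%.

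Markers of other types touch these levels. Cells labelled progenitors carried a summed Müller glia marker level of 8940 to 16527 CPM in the 4 P5 controls against 1100 to 3208 CPM in the 4 P2 controls, with none of the 6 markers at 0. Over all controls Apoe was the largest of them in progenitors (3577 CPM). Rlbp1 (639 against 295 CPM) and Glul (305 against 264) were higher in progenitors than in Müller glia, and the other markers lower. The sum therefore does not separate these labels. The 44 cells labelled bipolar in P2 control 1 had no UMI of the bipolar markers Vsx1, Grm6 and Trpm1 and a bipolar marker sum of 22.0 CPM, against 835 to 2383 CPM at P5, so the P2 bipolar label goes against its markers and no comparison of P2 bipolar cells was made.

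Over the control means of 11 combinations of type and age, the genes most like each member among 7864 genes were, for Pax6, Rbfox2 (Pearson r = 0.98 of log2 CPM), Mir9-3hg (0.98) and Tbx3 (0.97), an eye field partner. For Rax they were Rreb1 (0.95), Msi1 (0.94) and Fam174a (0.91), for Six3 Mpst (0.99), Ptprf (0.98) and Src (0.98), for Six6 Ndufaf2, Pim1 (0.90 each) and Ifngr2 (0.89), and for Lhx2 Rras2, Fgf9 and Mapre1 (0.99 each). Among the members, Six3 was most like Lhx2 (0.89) and Pax6 (0.83), while the r of Rax and Pax6 was 0.00. The points share libraries, and these r values are a description.

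The age comparison set 4 P5 controls against 4 P2 controls within each type, with edgeR's quasi-likelihood test fitted to all genes. Of 20 tests of members in 4 cell types, 5 passed an adjusted p of 0.05: Rax and Lhx2 in neurogenic cells, and Pax6, Six6 and Lhx2 in rods. In neurogenic cells 2 of 5 members changed, where 9.27% of all genes did, in rods 3 of 5 (13.2% of all genes), and in progenitors (17.5%) and amacrine cells (0.397%) none did. At an unadjusted p under 0.05 the members' count was 8 of 20. Of all genes, 33.5% were under it in progenitors, 22.6% in neurogenic cells, 27.6% in rods and 8.90% in amacrine cells. DESeq2 called 6 of the 20. Its share of all genes is not given here, so that count is not read as a result about the members.

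Rax fell in neurogenic cells. Its TMM-scaled level was 456, 435, 428 and 494 CPM in P2 controls 1 to 4 and 182, 162, 215 and 143 CPM in P5 controls 1 to 4. Every P5 control lay below every P2 control. Rax fell by 1.37 on the log2 scale (SE 0.24, adjusted p = 0.00103), from 453 ± 29.5 to 176 ± 30.7 CPM (n = 4 each). The fall stayed called with each control library left out, between -1.48 and -1.28.

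Lhx2 moved the other way in the same cells. It stood at 55.6, 42.4, 35.6 and 68.3 CPM in P2 controls 1 to 4 and at 70.2, 116, 104 and 110 CPM at P5, so the lowest P5 library lay just above the highest P2 library. The rise was 0.98 on the log2 scale (SE 0.24, adjusted p = 0.0118), from 50.5 ± 14.5 to 100.2 ± 20.6 CPM (n = 4 each). Without P2 control 3 it was 0.82 (adjusted p = 0.0523). The P2 level of Lhx2 is not told apart from background by the share of cells with a UMI. That share was 2.48% to 5.35% in the P2 controls and 5.26% to 10.4% in the P5 controls. These 2 members are those of the 5 whose neurogenic libraries did not overlap, as in 13.7% of all genes. Pax6 (0.17, SE 0.29), Six3 (0.23, SE 0.29) and Six6 (-0.04, SE 0.25) did not pass in neurogenic cells, with 95% intervals of -0.43 to 0.77, -0.37 to 0.84 and -0.55 to 0.47. Progenitor markers summed to 143 to 218 CPM in neurogenic cells of P2 controls and 683 to 1217 CPM at P5, and Müller glia markers to 404 to 614 and 2612 to 4419 CPM, and their part in the Rax and Lhx2 changes was not tested.

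In rods all 5 members had lower means at P5, and 3 passed. For Lhx2 and Pax6 the rod signal is not told apart from background by the share of cells with a UMI (2.92% and 1.08% for Lhx2, 5.46% and 2.44% for Pax6). Their falls are changes of that signal and do not show that rods expressed the genes. The P5 rod shares of Six6 (3.95% to 9.73% by control library) and Six3 (3.80% to 11.7%) lay on both sides of 5.46%. The P5 rod signal of Six6 and Six3 is thus in part not told apart from background. Lhx2 was at 33.7, 23.3, 27.3 and 45.4 CPM in P2 controls 1 to 4 and at 12.7, 4.81, 16.3 and 7.87 CPM at P5, without overlap. It fell by 1.63 (log2; SE 0.35, adjusted p = 0.00525), from 32.4 ± 9.63 to 10.4 ± 5.09 CPM (n = 4 each), and stayed called with each control left out.
Six6 was at 179, 117, 191 and 134 CPM at P2 and at 52.0, 49.1, 112 and 68.6 CPM at P5, also without overlap. It fell by 1.14 (log2; SE 0.33, adjusted p = 0.0313), from 155 ± 35.2 to 70.5 ± 29.2 CPM. The Six6 call rests on most libraries: it was lost without P2 control 1 or 3, or without P5 control 1, 2 or 4, at values of -1.12 to -1.01 and adjusted p up to 0.0943.
Pax6 was at 60.4, 51.3, 55.4 and 30.8 CPM at P2 and at 33.7, 11.1, 10.5 and 4.20 CPM at P5, so that P5 control 1 overlapped with P2 control 4. It fell by 1.72 (log2; SE 0.47, adjusted p = 0.0223), from 49.5 ± 13.0 to 14.9 ± 13.0 CPM, and the call was lost without P2 control 3 (-1.66) or P5 control 2 (-1.60) or 4 (-1.42). Without P5 control 1 it was larger, at -2.53, and called. Six3 (-0.83, SE 0.31, adjusted p = 0.0897 in edgeR's test) did not pass, though it did with DESeq2 (adjusted p = 0.0412) and without P5 control 3 (-1.18, adjusted p = 0.0143). Rax (-0.55, SE 0.26, adjusted p = 0.17) did not pass. Rods of 2 members, Six6 and Lhx2, did not overlap between ages, as in 16.7% of all genes.

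Rod markers summed to 932 to 2516 CPM in rods of P2 controls and 5552 to 11842 CPM at P5, and neurogenic markers to 274 to 675 CPM and 71.3 to 226 CPM. Amacrine markers in the same rods overlapped between ages (44.7 to 146 against 52.4 to 123 CPM). The part of these differences in the members' falls was not tested. The 4 P5 libraries numbered 1 have medians of 6.93% to 10.6% mitochondrial UMIs. Without them, an alternative chosen after seeing the data, Six6 in rods was at -1.01 and no longer called, and the other 4 changes stayed called.

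Progenitors kept Pax6 and Rax at the same level within the spread: Pax6 was at 341 ± 64.9 CPM at P2 and 349 ± 54.4 CPM at P5 (log2 0.03, 95% interval -0.45 to 0.52), and Rax at 245 ± 26.2 and 235 ± 42.2 CPM (-0.06, -0.49 to 0.37). Six6 (203 ± 19.2 against 140 ± 11 CPM, log2 0.54, adjusted p = 0.113) and Lhx2 (252 ± 20.6 against 189 ± 39.2 CPM, 0.42, adjusted p = 0.234) were higher in each P5 control than in each P2 control but did not pass the test, and 20.2% of all genes were without overlap there. Six3 was at 391 ± 77.6 and 308 ± 84.0 CPM (0.35, adjusted p = 0.289). In amacrine cells Pax6 was at 716 ± 138 CPM at P5 and 982 ± 203 CPM at P2 (-0.46, 95% interval -1.18 to 0.27). Rax was at 55.6 ± 54.2 and 112 ± 54.6 CPM (-1.0, -2.12 to 0.11). Its P5 signal is in part not told apart from background by the share of cells with a UMI (1.14% to 7.79% by library). No member passed or was without overlap in amacrine cells (3.87% of all genes were).

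**Figure D2:**
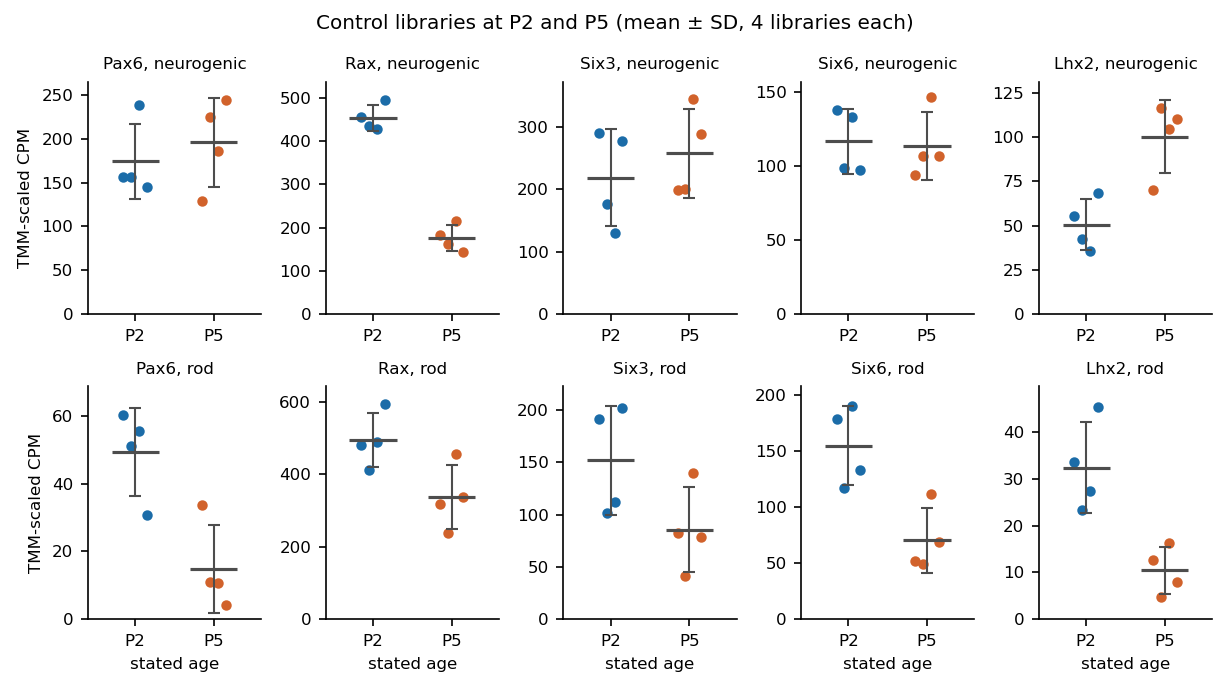
TMM-scaled CPM (y axes, linear from 0) of the 5 genes in neurogenic cells (top) and rods (bottom) of control libraries at P2 (blue) and P5 (orange), with 1 point per library and the mean ± SD of 4 libraries. In neurogenic cells Rax is lower (176 against 453 CPM) and Lhx2 higher (100.2 against 50.5 CPM) at P5, and in rods all means are lower at P5.

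Partner genes moved between ages as well, where in progenitors 17.5% of all genes passed (1034 of 14849 fell), in neurogenic cells 9.27% (357 of 13745 fell) and in rods 13.2% (878 of 14786 fell). Among the eye field partners in neurogenic cells, the progenitor factor Sox2 (1.3 on the log2 scale) and the Notch effector Hes1 (2.83) rose, and Sox11 fell by 1.39. In progenitors 3 of 10 tested partners fell (Otx2, -2.67, Tbx3, -0.75, and Sox11, -1.47), with a median of -0.03 against -0.04 over all genes. In rods Mitf rose by 1.51 and Sox11 (-2.27), Nr2e1 (-1.83) and Sox2 (-1.53) fell, with a median of -1.10 against 0.00 over all genes.
These shares of all genes are the background of the other lists too. Of the proneural genes that depend on Pax6, Atoh7 fell in progenitors (-5.26), neurogenic cells (-4.38) and rods (-5.13), where Neurog2 did not pass. Of 9 amacrine genes tested beside Pax6, 4 fell in progenitors, namely Tfap2c (-2.66), Ptf1a (-3.98), Tfap2a (-2.99) and Foxn4 (-3.14). In neurogenic cells the same 4 fell, by 1.98 to 6.0, and Isl1 rose by 2.34, and in rods Ptf1a alone fell (-4.85). Over all controls Isl1 was at 2.69 CPM in amacrine cells, 808 in bipolar cells and 1059 in starburst amacrine cells. In the Notch list of 5 genes, the ligands Dll3 and Dll1 fell in progenitors (-3.61 and -2.23) and rods (-3.54 and -1.82), Notch1 (-1.61) and Hes5 (-2.45) fell in rods too, while in neurogenic cells Dll3 fell by 2.14 and Hes1 rose. In the retinal determination network Dach2 rose in progenitors (1.89) and neurogenic cells (1.41), Eya4 fell in progenitors (-1.96) and Eya2 in neurogenic cells (-1.55), and no gene of the 8 tested passed in rods. No list gene passed in amacrine cells.

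MEIS overexpression was tested next, as the mean of the 3 construct groups (any MEIS, 6 libraries) against the 4 controls of the same age. None of the members passed in any type at either age: 0 of 20 tests at P2 and 0 of 25 at P5 with edgeR's quasi-likelihood test, and 0 and 0 with DESeq2. At an unadjusted p under 0.05 the counts were 1 at P2 and 0 at P5. Of all genes, 9.14% in progenitors, 10.7% in neurogenic cells, 10.9% in rods and 4.15% in amacrine cells were under it at P2, and 0.724% to 3.82% by type at P5. Few genes passed in these contrasts at all. At P2 the percentages were 0.0135% in progenitors and 0% in neurogenic cells, rods and amacrine cells. At P5 they were 0.0202% in progenitors, 0.00728% in neurogenic cells, 0% in rods and amacrine cells and 0.00678% in bipolar cells. A count of 0 among 5 members therefore sits near the background. In the types with 0%, the construct genes Meis1 and Meis2 did not pass either. A count of 0 there does not show that MEIS left the members unchanged. No member had all 6 MEIS libraries on 1 side of the 4 controls in any type. Of all genes, at P2 0.7% did in progenitors, 0.902% in neurogenic cells, 1.41% in rods and 1% in amacrine cells. At P5 the shares were 0.424%, 0.422%, 0.203% and 0.153% in these types and 0.488% in bipolar cells.

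Pax6 in P2 progenitors was at 336 and 359 CPM in the MEIS1 libraries, 291 and 126 in the MEIS2 libraries and 310 and 281 in the combination libraries, with controls at 251, 340, 399 and 375. Only MEIS2 replicate 2, the shallow library, lay outside the range of the controls. The difference was -0.29 on the log2 scale (SE 0.21, 95% interval -0.73 to 0.15, adjusted p = 0.702). With 1 library left out it ran from -0.55 (adjusted p = 0.0801), without MEIS2 replicate 1, to -0.13, without MEIS2 replicate 2. At P5 the MEIS1 libraries held 359 and 356 CPM of Pax6, the MEIS2 libraries 267 and 359 and the combination libraries 331 and 416, with controls at 308, 359, 308 and 423. The P5 difference was -0.01 (SE 0.21, 95% interval -0.45 to 0.44). The MEIS and control libraries overlapped at both ages.
In amacrine cells, where Pax6 is highest, the P2 libraries held 1169 and 1311 CPM with MEIS1, 1224 and 388 with MEIS2, 1182 and 950 with the combination, and 801, 965, 1270 and 893 in controls. MEIS2 replicate 2 was again the lowest, and the groups overlapped. The differences were 0.06 (95% interval -0.61 to 0.72) at P2 and 0.01 (-0.65 to 0.67) at P5, and the P2 sign turned in several alternatives. Without MEIS2 replicate 2 the P2 difference in Pax6 was 0.26.

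The other members in progenitors also overlapped between MEIS and control libraries. At P2 the any-MEIS differences were 0.10 for Rax (264 ± 59.0 against 245 ± 26.2 CPM), 0.09 for Six3 (329 ± 52.2 against 308 ± 84.0 CPM), 0.08 for Six6 (148 ± 45.6 against 140 ± 11 CPM) and 0.34 for Lhx2 (239 ± 69.6 against 189 ± 39.2 CPM), with standard errors of 0.19 to 0.22. Lhx2 and Six6 each had 4 of 6 MEIS libraries above all controls and MEIS2 replicate 2 below all. Without that library Lhx2 was at 0.52 (adjusted p = 0.473), Six6 at 0.26, Rax at 0.21 and Six3 at 0.19, whereas without MEIS2 replicate 1 Lhx2 was at 0.018. At P5 the differences were -0.04 for Rax, -0.02 for Six3, 0.05 for Six6 and 0.07 for Lhx2, each with a 95% interval inside -0.45 to 0.53.

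**Figure D3:**
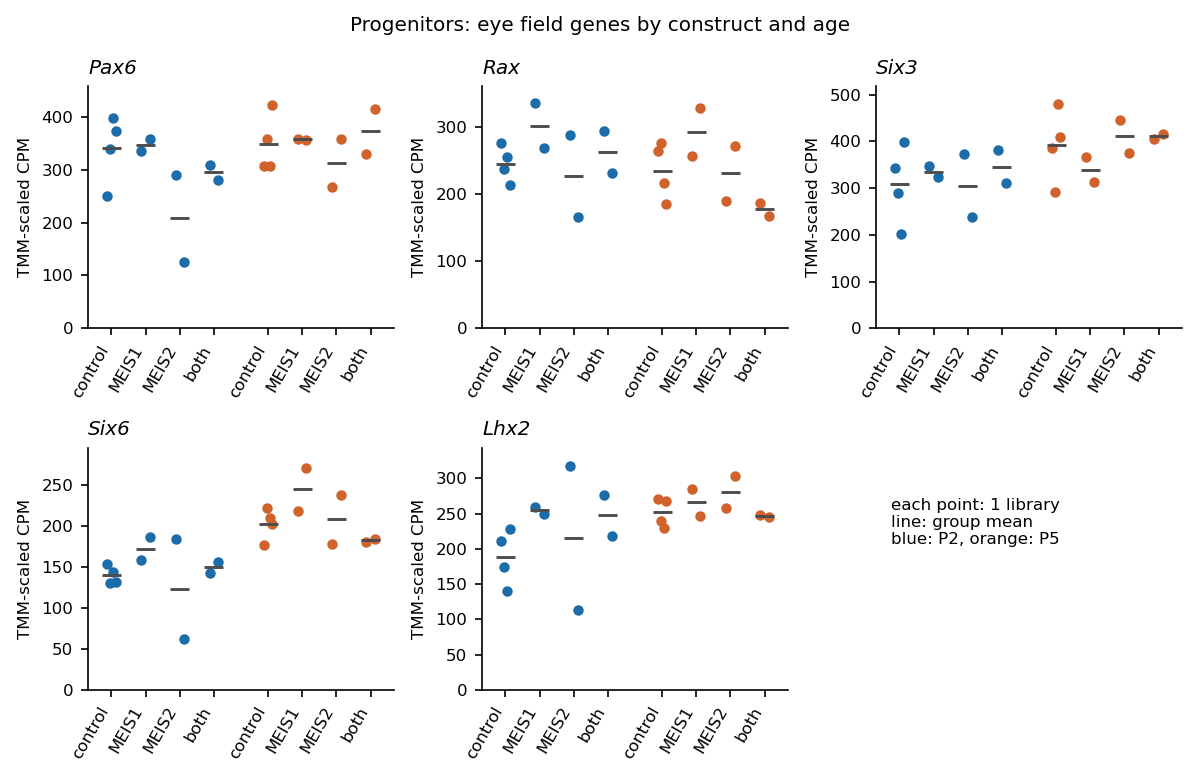
TMM-scaled CPM (y axes, linear from 0) in progenitors by construct group ("both" is the combination) at P2 (blue) and P5 (orange), with 1 point per library and lines at group means. Construct and control libraries overlap for every gene, and the P2 MEIS2 library with 126 CPM of Pax6 is also the lowest P2 library for Rax, Six6 and Lhx2.

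In amacrine cells Lhx2 was the member with the largest P2 difference. It was at 38.4 and 38.2 CPM with MEIS1, 111 and 23.4 with MEIS2, 95.5 and 41.6 with the combination, and 29.8, 19.3, 21.4 and 32.3 in controls. In 5 of 6 MEIS libraries it lay above all controls, a log2 difference of 1.15 (SE 0.43, unadjusted p = 0.0174, adjusted p = 0.988 in edgeR's test), which does not pass. With 1 library left out it ran from 0.61, without MEIS2 replicate 1, to 1.37, without MEIS2 replicate 2, and did not pass in any of these fits. At P5 the same difference was 0.52 (SE 0.45), with 103 CPM in combination replicate 1 and 14.2 to 30.9 CPM in controls. The test of the P5 effect less the P2 effect gave 0 of 20 members called, with 0% of all genes in each of the 4 types, no member at an unadjusted p under 0.05, and 0 with DESeq2. For Pax6 in progenitors that difference was 0.28 (95% interval -0.34 to 0.91), and 0.12 without MEIS2 replicate 2 at P2.

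Each construct alone called no member either: 0 of 60 tests at P2 and 0 of 75 at P5 in edgeR, with 3 and 5 at an unadjusted p under 0.05, and 0 and 1 with DESeq2. The genes called at P2 were 0.00673%, 0.0404% and 0.0135% in progenitors for MEIS1, MEIS2 and the combination, 0.00728%, 0% and 0% in neurogenic cells, 0.00676%, 0% and 0% in rods and 0% in amacrine cells. At P5 they were 0.00673%, 0.00673% and 0.0135% in progenitors, 0.00728%, 0% and 0.0218% in neurogenic cells, 0%, 0.0136% and 0% in bipolar cells, and 0% in rods and amacrine cells. Where 0% of genes were called, the overexpressed gene itself was not called either. By type and construct, 0.848% to 15.9% of all genes were at an unadjusted p under 0.05. Of the 8 member tests there, 4 are of Lhx2, in amacrine cells with MEIS2 (1.44, and 2.11 without MEIS2 replicate 2, not called) and the combination (1.42) at P2 and with the combination at P5 (1.42), and in rods with the combination at P5 (0.86), where 7.35%, 1.70%, 5.83% and 3.79% of all genes were. For MEIS2 at P2, Pax6 in progenitors was at -0.69 (SE 0.29, adjusted p = 0.257), from 2 libraries of 291 and 126 CPM. With MEIS2 replicate 1 left out the shallow library stood alone. Pax6 was then at -1.47 and Six6 at -1.22 in progenitors, and Rax at -1.49 in neurogenic cells. With replicate 2 left out in its place Pax6 was at -0.22 in progenitors. With both kept, 15.9% of all genes in progenitors and 13.5% in neurogenic cells were at an unadjusted p under 0.05.

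Rax in P5 bipolar cells had the smallest p of these tests. The combination libraries held 190 and 50.3 CPM, and the controls 31.8, 10.2, 36.9 and 17.3 CPM, so both lay above every control, where 22% of all genes had the 2 combination libraries on 1 side of the controls. MEIS1 libraries were at 13.6 and 6.43 CPM and MEIS2 libraries at 17.7 and 14.7 CPM. The combination difference was 2.25 on the log2 scale (SE 0.55, adjusted p = 0.216), a 4.74-fold higher fitted level that did not pass. Six6 was also higher in both combination libraries (131 and 80.9 against 59.7 to 78.1 CPM, log2 0.60, adjusted p = 0.306), and Pax6 was at 54.4 and 18.4 CPM against 8.93 to 24.4 CPM (1.27, adjusted p = 0.396). Without combination replicate 1 Six6 was at 0.25 and Pax6 at 0.47, and without replicate 2 they were at 0.94 (adjusted p = 0.0318, which passes) and 2.02 (adjusted p = 0.0888). Combination replicate 1 has 53 bipolar cells, and the bipolar markers summed to 74.9 CPM in the lower of the 2 combination libraries and 446 CPM in the other, with none of the 6 at 0, against 835 to 2383 CPM in controls. Their part in the Rax difference was not tested. Without combination replicate 1 the Rax difference was 1.07 (adjusted p = 0.867), without all P5 libraries numbered 1 it was 1.24, and without replicate 2 it was 2.98 and passed, as it did with DESeq2 (2.36) and without the filter on low counts (2.24). At an unadjusted p under 0.05 were 11.4% of all genes in that contrast.

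**Figure D4:**
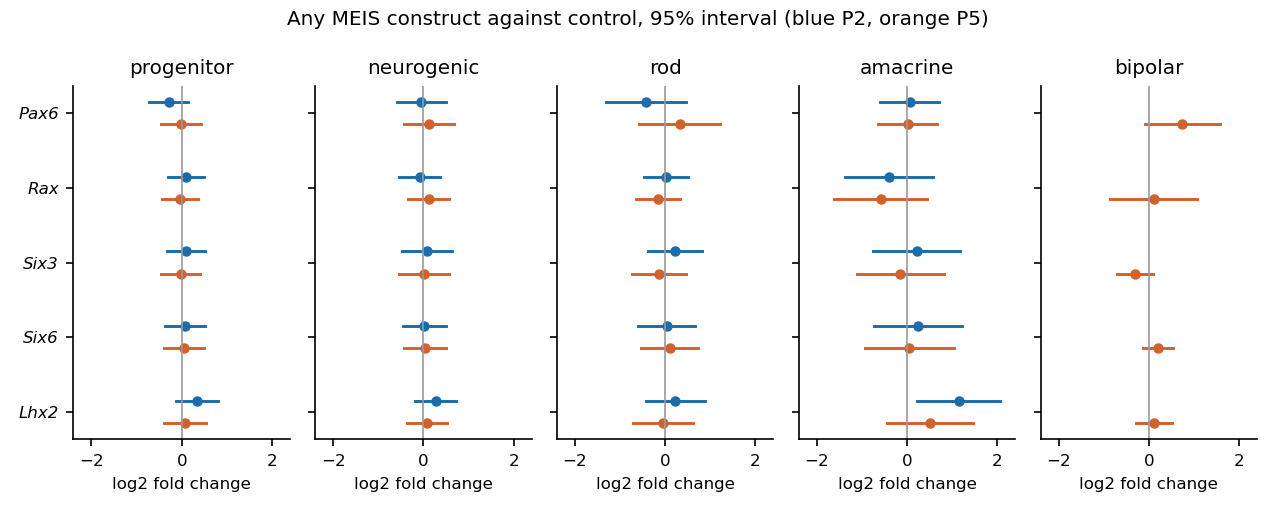
Log2 fold change of any MEIS construct against control (x axis) with its 95% interval for each gene (y axis) in 5 cell types, P2 in blue and P5 in orange (bipolar cells at P5 only). All intervals cover 0 except that of Lhx2 in P2 amacrine cells (0.23 to 2.06), which does not pass after adjustment.

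None of the genes of the fixed lists passed in any any-MEIS contrast. In progenitors the medians were 0.10 at P2 and -0.13 at P5 over 10 eye field partners, 0.25 and -0.03 over 8 genes of the retinal determination network, 0.06 and -0.83 over 3 proneural genes and -0.14 and -0.36 over 9 amacrine genes, with -0.01 and -0.04 over all genes.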

How the data were processed

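Values in the deposited gene table are UMI counts of single cells, not normalized, per the file headers and values: whole numbers that sum to the authors' total in each cell. Reads went through Cell Ranger on mm10 with a GFP locus, per the labels' protocols and the series design text, and Seurat 5 is named in the submitters' processing notes. The deposited description of cells gives the authors' cell type and mitochondrial UMIs as a percent. The Cell Ranger version and the cell filters are not given in the sources used here. Whether counting used strand is not stated either, and Pax6 and Six3 overlap the antisense genes Pax6os1 and Six3os1. The starts of the cell names equal the title in 10 of 20 libraries and name another group in 2. P2 control 1 starts with a combination library's name, and a P2 combination library with a control's. The titles were followed, and the cell names were an alternative. The Meis1 and Meis2 levels in P2 progenitors, given above, went with the titles of these 2 libraries and not with their cell names.

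The UMI counts were summed per library and cell type (at least 20 cells). Genes passed filterByExpr, counts were scaled with TMM, and edgeR 4.0.16 (R 4.3.3) fitted 8 group means per type with its quasi-likelihood test, two-sided, with Benjamini-Hochberg adjustment over all genes (called under 0.05). Sums held 300129 to 50317436 UMIs. Levels are CPM, and intervals are 95%. Shares of cells used cells thinned to 1000 UMIs. Doublets were marked with Scrublet (scanpy 1.11.5) for an alternative only. It marked 0.0477% to 11.5% of cells per library. In 7 of 20 libraries it marked under 0.5%, so the alternative removed few cells there, and in P5 control 1, with 6292 cells, it did not work. Alternatives included DESeq2 1.42.0. The fits were tested on simulated data. Named genes were the 5 members, the constructs' own genes, the 3 genes most like each member, and up to 4 called genes in each direction of each fixed list. The members and lists were chosen with earlier results of these data known. Some genes of the lists are not reported here.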

Additional observations from a re-analysis of the deposited data

Results flagged for a closer look

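In the 50 groups of 4 control libraries, by member, cell type and age, 4 held a library far from the other 3, and chance alone gives about 1 in 20. Lhx2 in neurogenic cells of P5 control 1 was at 68.0 CPM, below the other 3 at 106 to 111 CPM, and this library is the closest to the P2 controls in the neurogenic rise of Lhx2. Pax6 in bipolar cells of P5 control 1 was at 23.1 CPM, above 8.70 to 10.9 CPM in the others. Pax6 in cones of P2 control 4, from 44 cells, was at 27.7 CPM against 52.0 to 54.3 CPM. Six6 in progenitors of P2 control 1 was at 166 CPM against 122 to 126 CPM. P5 control 1 has a median of 9.95% mitochondrial UMIs, and P2 control 1 is the library of 17739 cells whose cell names begin as those of a combination library. Their part in these values was not tested.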

How the results depend on the processing

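The counts of members called for any MEIS construct were 0 at both ages under every alternative run, and so was the count for the difference between ages. For single constructs the P5 count rose from 0 to 1 with DESeq2, to 1 without the filter on low counts and to 1 with the replicate block, each time Rax in bipolar cells. Leaving out 1 library moved both this count and the P2 count, and a construct library left out leaves 1 in its group. The age count ran from 2 (without P2 control 3) to 6 (without P5 control 3), and was 6 with DESeq2, with the replicate block and with a block shared by both ages (chosen after seeing the data), each adding Six3 in rods. The share of all genes called in each of these fits is not given here. The counts therefore describe the fits and are not read as results about the members. The share of P2 amacrine cells with Pax6 was 76.8% at 2000 UMIs and 93.7% unthinned, and that of rods 9.76% and 18.4%.

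Small MEIS differences changed sign. For Pax6 in P5 progenitors the value was 0.0066 without TMM factors, 0.057 with the replicate block and 0.048 without the P5 libraries numbered 1. Without those libraries Rax was 0.13, and with the replicate block Six3 was 0.20. Pax6 in P2 amacrine cells was -0.031 by cell names and -0.0040 without doublets, and in P5 amacrine cells -0.015 without TMM factors. With 1 library left out, progenitor values at P2 ran from -0.068 to 0.21 for Rax, -0.056 to 0.26 for Six3 and -0.27 to 0.26 for Six6. At P5 they ran from -0.079 to 0.094 for Pax6, -0.14 to 0.042 for Rax, -0.14 to 0.0895 for Six3 and -0.018 to 0.11 for Six6. In amacrine cells Pax6 ran from -0.30 to 0.26 at P2 and -0.10 to 0.13 at P5. The cause was not tested.

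The difference of library 1 less library 2 over genes was correlated between groups of an age and type. The correlations were -0.23 to 0.56 at P2, and those below 0 were all of pairs with MEIS2. At P5 they were -0.20 to 0.60. Pairs among control, MEIS1 and MEIS2 ran from 0.31 to 0.60 there, and values below 0 were all of pairs with the combination. The labels do not say that a number pairs samples. Fits of 1 age alone give no value for contrasts of both ages. With 2 libraries per construct, a library left out leaves 1, which is assumed to vary like the other groups.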
